A study of Mus musculus with 8 samples.

Results

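This account concerns small intestine of mice given the gamma-secretase inhibitor DBZ, set against small intestine of mice given the vehicle. All mice were 6-week-old C57/Black6 females, and each received 1 intraperitoneal injection a day for 5 days. The vehicle group received dimethyl sulfoxide (DMSO), and the DBZ group received DBZ at 10 µmol/kg. The 2 other groups received dexamethasone, a synthetic glucocorticoid, at 15 mg/kg, or dexamethasone at 15 mg/kg together with DBZ at 10 µmol/kg (the combination). The comparison takes 4 of the 8 deposited samples, 2 labelled DBZ and 2 labelled vehicle. Across 22690 probe sets the DBZ columns matched exactly in 22684, and in the remaining 6 one of them was listed at 0. Exact matches between any other columns numbered 0. The DBZ columns were therefore counted as 1 array, so DBZ has n = 1, vehicle n = 2, and the data hold 7 distinct arrays. The labels name the tissue as small intestine without its segment, and say of replicates only their number, so p-values measure the spread between these arrays.

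Gamma-secretase is the membrane protease that cuts Notch receptors after ligand binding and frees their intracellular domain, which moves to the nucleus and acts with the DNA-binding protein Rbpj. In the crypts of the intestine this signal keeps progenitors dividing and sustains the repressor Hes1, which holds down Atoh1, the factor that commits cells to the goblet, Paneth, enteroendocrine and other secretory fates. Blockade of Notch in rodent intestine is known for crypts that stop dividing and fill with goblet cells, an effect that limits the use of gamma-secretase inhibitors.

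Labelled RNA was hybridised to Affymetrix arrays, and each value is a signal per probe set, brought here to a common trimmed mean of 250 per array. The vehicle columns were deposited at a trimmed mean of 500.2 and the other columns at 250.1. All 13 marker genes of small intestinal epithelium were measured, with summed signals of 71660 and 71660 in the vehicle arrays, 83380 in the DBZ array and 65690 to 97850 in the others. Of these 13 only Cdx2 was called, and it was lower. The Spearman correlation of the DBZ array with the vehicle arrays was 0.902 and 0.906, below its correlation with the dexamethasone arrays (0.939 and 0.942) and with the combination arrays (0.954 and 0.945). The DBZ array also had the highest ratio of 3' to 5' signal, a measure of RNA integrity, at 1.8 for Gapdh and 2.17 for beta-actin against at most 1.22 and 1.79 in the others. The part of these array differences in the results was not tested.

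Differences are given on the log2 scale with the SE of a limma fit over all 7 arrays, in which the lone DBZ array is assumed to vary like the other groups. "Rose", "fell" and "called" are kept for genes with a Benjamini-Hochberg adjusted p under 0.05 over all tested probe sets. Of 8094 genes tested in DBZ against vehicle 632 were called (7.81%), of which 318 rose (3.93%) and 314 fell (3.88%), and the median of all genes was -0.02. The combination against dexamethasone adds the same dose of DBZ on another background and shares no array with the first comparison. There 3 genes were called (0.0371%), higher in 2 (0.0247%) and lower in 1 (0.0124%), with 828 at unadjusted p under 0.05. The interaction, which tests whether the DBZ difference was the same on both backgrounds, called 311 genes (3.84%), 142 higher (1.75%) and 169 lower (2.09%). DBZ against dexamethasone, which shares the DBZ array with the first comparison, called 15 genes (0.185%), of which 6 were higher (0.0741%) and 9 lower (0.111%). Without adjustment 1077 genes had a p under 0.05. No gene was called both in DBZ against vehicle and in the combination against dexamethasone. A DBZ array below all 6 others was seen in 18.1% of all genes and above all others in 16.3%. Both combination arrays lay below both dexamethasone arrays in 28.6% of genes and above them in 16.3%.

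**Figure D1:**
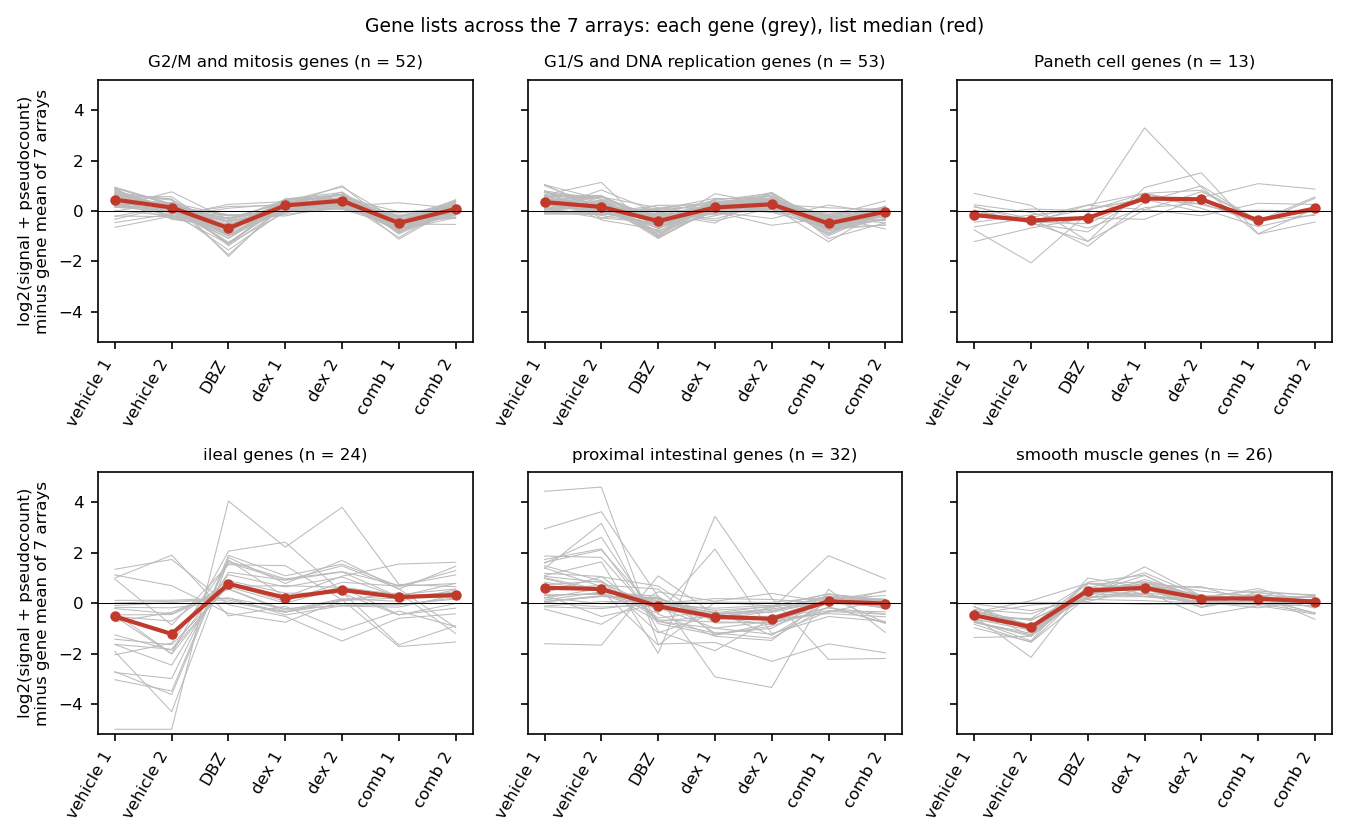
The 6 panels plot gene lists across the 7 arrays, with log2 signal (after adding a pseudocount) minus the gene's mean over the arrays on the y axis, each gene as a grey line clipped at the panel edges and the list median in red. The G2/M median is lowest in the DBZ array and the G1/S median is low in the DBZ and first combination arrays, while the ileal, proximal and smooth muscle medians separate the vehicle arrays from all 5 treated arrays.

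No transcript of the protease that DBZ inhibits was called. Of 7 gamma-secretase subunits 4 had a named probe set, all of these were tested and none was called. Psenen, which activates the protease, measured 1167 and 1325 with vehicle and 1273 in the DBZ array (0.03 ± 0.22). Aph1a, a scaffold subunit, stood at 0.26 ± 0.20 with -0.28 and -1.76 from its other probe sets, the substrate receptor Ncstn at -0.21 ± 0.25, and the catalytic subunit Psen2 at 0.22 ± 0.31.

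Among Notch receptors, ligands and regulators, 19 of 26 were tested, 12 lay below 0 and none was called. The receptor with the smallest p was Notch3, known from smooth muscle and pericytes, at 53.5 and 54.7 with vehicle and 14.3 with DBZ. Its difference was -1.32 ± 0.37 and did not pass (adjusted p = 0.0541), and its dexamethasone and combination signals were 39.2 and 49.4 and 43.7 and 44. Notch1 and Notch2, the receptors of the crypt epithelium, stood at -0.21 ± 0.30 and 0.44 ± 0.30. The ligands Dll1, Dll4 and Jag2 stood at -0.55 ± 0.39, -0.80 ± 0.34 and -0.79 ± 0.36, none past the threshold. The other probe set of Dll4 gave 0.70. Rbpj, the DNA-binding partner of the receptor's intracellular domain, stood at -0.49 ± 0.26, and its coactivator Maml1 at 0.25 ± 0.30. Of the glycosyltransferases that tune ligand choice, Mfng stood at -0.95 ± 0.39, Rfng at 0.45 ± 0.24 (its other probe set -0.26) and Lfng at 0.38 ± 0.36. The proteases that prepare receptors for gamma-secretase, Adam10, Adam17 and Furin, stood at 0.34 ± 0.23, -0.23 ± 0.24 and -0.29 ± 0.25. The other probe sets of Adam10 gave -1.24 and -0.45. The regulators Numb and Numbl stood at 0.36 ± 0.20 and -0.06 ± 0.41, and the ubiquitin ligases Itch, Fbxw7 and Dtx1 at -0.15 ± 0.25, 0.08 ± 0.34 and -0.62 ± 0.34. Not tested were Dll3, Dtx2, Jag1, Maml2, Mib1, Notch4 and Pofut1.

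Of the 9 tested genes on the Notch target list 5 lay below 0 and 4 above. Hes1 had 104 and 138 in the vehicle arrays, 71.2 in the DBZ array, 123 and 155 with dexamethasone and 71 and 118 with the combination. The DBZ array was below both vehicle arrays and both combination arrays were below both dexamethasone arrays, but neither difference passed (-0.66 ± 0.34, adjusted p = 0.254, and -0.53 ± 0.28, adjusted p = 0.592). Sox9, a transcription factor of crypt progenitors, had 81.2 and 84 with vehicle and 26.6 in the DBZ array, and 84.5 and 66.7 against 30.8 and 57.1 on the dexamethasone background. Its differences of -1.28 ± 0.38 (adjusted p = 0.0657; its other probe set -0.43) and -0.68 ± 0.31 did not pass either. Myc, a driver of growth, stood at -1.03 ± 0.43 and -0.41 ± 0.35 on the respective backgrounds. Id1, Id2 and Id3, inhibitors of helix-loop-helix factors, stood at 0.41 ± 0.28, 0.81 ± 0.35 and 0.66 ± 0.25, and Nrarp, Hes6 and Nrip1 stood at -0.06 ± 0.29, 0.07 ± 0.23 and -0.02 ± 0.26. Over the 9 targets tested of 14 the median was -0.02 against -0.02 for all genes, or 0.10 with 1 gene called higher without vehicle replicate 2, 4 had an unadjusted p under 0.05, and none was called. Gata3, Hes5, Hey1, Hey2 and Heyl were not tested.

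**Figure D2:**
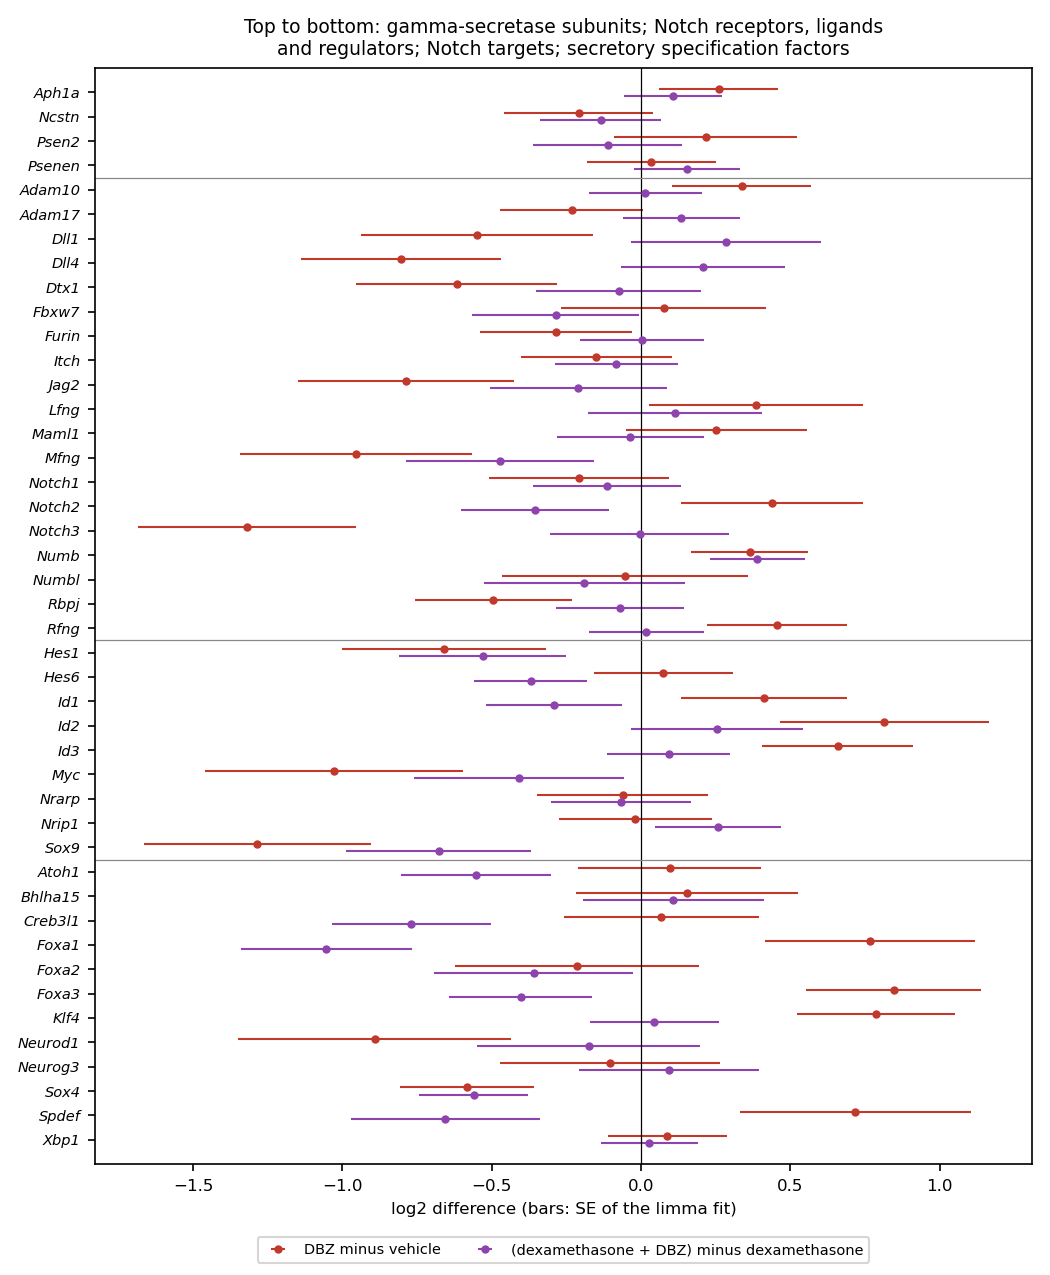
Log2 differences with their SE are plotted for the tested gamma-secretase subunits, Notch receptors, ligands and regulators, Notch targets and secretory factors, for DBZ minus vehicle (red) and the combination minus dexamethasone (purple). Hes1 and Sox9 lie to the left of 0 on both backgrounds (-0.66 and -1.28 against vehicle), and no gene shown passed the threshold in either comparison.

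The factors that drive secretory fate were not called. Atoh1 had 177 and 165 in the vehicle arrays and 184 in the DBZ array (0.10 ± 0.31), so the DBZ array lay just above the vehicle pair. On the dexamethasone background Atoh1 had 264 and 372 without DBZ and 168 and 262 with it (-0.55 ± 0.25). Klf4, a factor of goblet cell maturation, had 1669 and 2465 with vehicle and 3507 with DBZ, the highest of the 7 arrays (0.79 ± 0.26, adjusted p = 0.0958). Foxa3 and Spdef, which act in goblet cells, stood at 0.85 ± 0.29 and 0.72 ± 0.39, and Foxa1 and Foxa2 at 0.76 ± 0.35 and -0.22 ± 0.41. Neurog3 and Neurod1, factors of the enteroendocrine line, stood at -0.10 ± 0.37 and -0.89 ± 0.46. Sox4 stood at -0.58 ± 0.22, with -0.07, 1.42 and -0.96 from its other probe sets. Xbp1, a factor of secretory capacity, stood at 0.09 ± 0.20, or -0.94 (adjusted p = 0.0277) from the probe set left without those that may cross-hybridise. Bhlha15 and Creb3l1 stood at 0.15 ± 0.37 and 0.07 ± 0.33. Of 23 factors 12 were tested, with a median of 0.09 against vehicle and -0.38 in the combination against dexamethasone. Among those that did not pass the filter or were not measured were Gfi1, Insm1, Pax4, Pax6 and Pou2f3.

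Of 31 goblet cell genes tested 24 lay above 0 against 48.5% of all genes, with a median of 0.31. Of the 31, 3 rose and 1 fell, beside 3.93% and 3.88% of all genes. Against dexamethasone 20 of the 31 lay below 0 in the DBZ array, beside 4309 of all 8094 genes, with a median of -0.28. In the combination against dexamethasone 20 lay below 0, beside 4846 of all 8094 genes, with a median of -0.21. Guca2a, the peptide guanylin that governs fluid secretion, had 1542 and 1326 with vehicle and 6646 with DBZ (2.21 ± 0.25). The dexamethasone and combination arrays were as high (6769 and 6453, and 5026 and 7218), so Guca2a separated vehicle from all treated arrays. Clca1, a secreted goblet cell protein, rose from 3386 and 2859 to 7260 (1.22 ± 0.29), though its other probe set gave 0.36, and Tmsb10 rose (0.86 ± 0.22), with 0.46, 0.70 and -2.68 from its other probe sets. Galnt7, which starts the sugar chains of mucins, fell from 509.6 and 657 to 287 (-0.98 ± 0.26). Ern2, the stress sensor of goblet cells, had 122 and 49.2 with vehicle and 247 with DBZ but did not pass (1.52 ± 0.42, adjusted p = 0.0533), and Rep15 stood at 1.13 ± 0.40. The call of Clca1 (1.10 to 1.34) ended without vehicle replicate 1 or 2. The call of Tmsb10 (0.80 to 0.92) ended without dexamethasone replicate 1 or 2 or vehicle replicate 1 or 2. The call of Galnt7 (-1.16 to -0.80) ended without combination replicate 1 or 2, dexamethasone replicate 1 or 2 or vehicle replicate 1 or 2.

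Paneth cell genes were lower in the DBZ array beside dexamethasone than beside vehicle. Of 13 tested the median was 0.06 against vehicle (-0.06 without vehicle replicate 1), with 1 fall, and -0.90 against dexamethasone, where 12 lay below 0 and the median of all genes was -0.03. Mmp7, the protease that activates the antimicrobial defensins of Paneth cells, had 299 and 205 with vehicle, 118 with DBZ, 564 and 849.6 with dexamethasone and 149 and 308 with the combination. The DBZ array was the lowest of the 7, and against dexamethasone Mmp7 was lower (-2.43 ± 0.41, adjusted p = 0.0474), a difference that did not pass against vehicle (-0.99 ± 0.41). The lectin Itln1 was also lowest in the DBZ array, with 2868 and 2076 with vehicle, 965 with DBZ and 3312 and 5131 with dexamethasone, and did not pass (-1.33 ± 0.39 against vehicle, -2.08 ± 0.39 against dexamethasone, adjusted p = 0.0647). Lysozyme (Lyz1) had 10080 and 8131 with vehicle and 5290 with DBZ, again the lowest array (-0.77 ± 0.35). Colipase (Clps) fell from 834 and 597 to 215 (-1.66 ± 0.31). Tcf4 and Pnliprp2 stood at 0.57 ± 0.24 and 0.67 ± 0.34. In the combination against dexamethasone 11 of the 13 lay below 0, beside 4846 of all 8094 genes. The median there was -0.62, or -0.36 without combination replicate 1. The call of Clps (-1.42) ended without vehicle replicate 1. The call of Mmp7 against dexamethasone ended without vehicle replicate 1 or 2, dexamethasone replicate 1 or combination replicate 1 or 2.

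Enteroendocrine hormones moved in both directions. Of 24 genes tested 2 rose and 4 fell, with a median of -0.13. Without vehicle replicate 1 the median was 0.04 and 1 fell, and without vehicle replicate 2 the median was -0.27. Pyy, a hormone of the distal gut, had 39.1 and 16.8 with vehicle and 364 with DBZ (3.28 ± 0.35), and neurotensin (Nts) had 464 and 158 and 1182 (2.07 ± 0.47). The proximal hormone Cck had 220.1 and 142 with vehicle and 40.1 with DBZ (-1.85 ± 0.37), and Ddc, which makes serotonin, had 2659 and 2264 and 814 (-1.58 ± 0.24). The granule protein Chgb fell (-1.13 ± 0.29). Each of these DBZ values lay within or near the dexamethasone and combination arrays, for example 37.4 and 36.1 and 52.6 and 79.6 for Cck. Afp, alpha-fetoprotein, was an exception, with 325 and 448 with vehicle, 90.8 with DBZ, 9.51 and 0.523 with dexamethasone and 18.7 and 9.47 with the combination. It fell against vehicle (-1.93 ± 0.44) and was higher than with dexamethasone (2.62 ± 0.44, adjusted p = 0.0474), a call that ended without any single dexamethasone or combination array. Of 10 tuft cell genes tested none was called. The call of Cck (-1.55) ended without vehicle replicate 1. The call of Nts (2.07) ended without combination replicate 1 or 2. The call of Afp (-2.16 to -1.71) ended without vehicle replicate 1 or 2. The call of Chgb (-1.13 to -0.92) ended without combination replicate 1 or 2 or vehicle replicate 1.

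Genes of mitosis were lower in the DBZ array than in vehicle and dexamethasone arrays alike. Of 52 G2/M and mitosis genes tested 49 lay below 0 against vehicle, beside 4168 of all 8094 genes, with a median of -0.92. Of the 52, 13 fell and 0 rose, beside 3.88% and 3.93% of all genes. In bulk tissue, fewer cells of a type and less RNA per cell cannot be told apart. The DBZ array was the lowest of the 7 in 32 of the 52, against 18.1% of all genes. Against dexamethasone the median was -0.97 and 51 lay below 0, beside 4309 of all 8094 genes. There 2 genes were called lower, beside 0.111% of all genes. In the combination against dexamethasone the median was -0.51 beside -0.07 for all genes, and 51 lay below 0 beside 4846 of all 8094. None passed there. Both combination arrays were below both dexamethasone arrays in 36 genes, against 28.6% of all genes.

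Aurkb, a kinase that corrects chromosome attachment, had 62.8 and 53.8 in the vehicle arrays, 1.25 in the DBZ array, 49.4 and 79.4 with dexamethasone and 23.9 and 26.2 with the combination. The DBZ array was the lowest and both combination arrays lay between it and the others. Aurkb fell against vehicle (-2.38 ± 0.41) and was lower against dexamethasone (-2.47 ± 0.41, adjusted p = 0.0474), while the combination stood at -1.01 ± 0.34 against dexamethasone. Smc2, a core subunit of the condensin that packs chromosomes, had 164 and 145 with vehicle, 38.1 with DBZ, 145 and 187 with dexamethasone and 82.5 and 109.5 with the combination. It fell against vehicle (-1.72 ± 0.29) and was lower against dexamethasone (-1.81 ± 0.29, adjusted p = 0.0474). The mitotic kinase Plk1 fell from 156 and 91.8 to 25.2 (-1.82 ± 0.39), with 91.1 and 115 in the dexamethasone arrays. The kinetochore protein Nuf2 fell from 85.7 and 49.8 to 2.98 (-2.35 ± 0.51), and the spindle checkpoint protein Mad2l1 from 245 and 151 to 51.4 (-1.69 ± 0.37). Cdca3, which promotes entry into mitosis, fell (-1.69 ± 0.38). Several of these signals lie near the pseudocount of 12.3, which limits the size of such differences.

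The calls of Plk1 (-1.47), Nuf2 (-2.02) and Mad2l1 (-1.36) ended without vehicle replicate 1. The call of Cdca3 (-1.69 to -1.18) ended without combination replicate 1 or 2 or vehicle replicate 1. Against dexamethasone, where Aurkb and Smc2 were called, the count of G2/M genes called lower was 1 without either vehicle array and 0 without any single dexamethasone or combination array. Against vehicle the count of G2/M genes that fell was 2 without vehicle replicate 1 and 11 or 12 without any other single array, while the median lay from -1.18 to -0.76. In the combination against dexamethasone the median was -0.25 without combination replicate 1 and -0.79 without combination replicate 2.

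**Figure D3:**
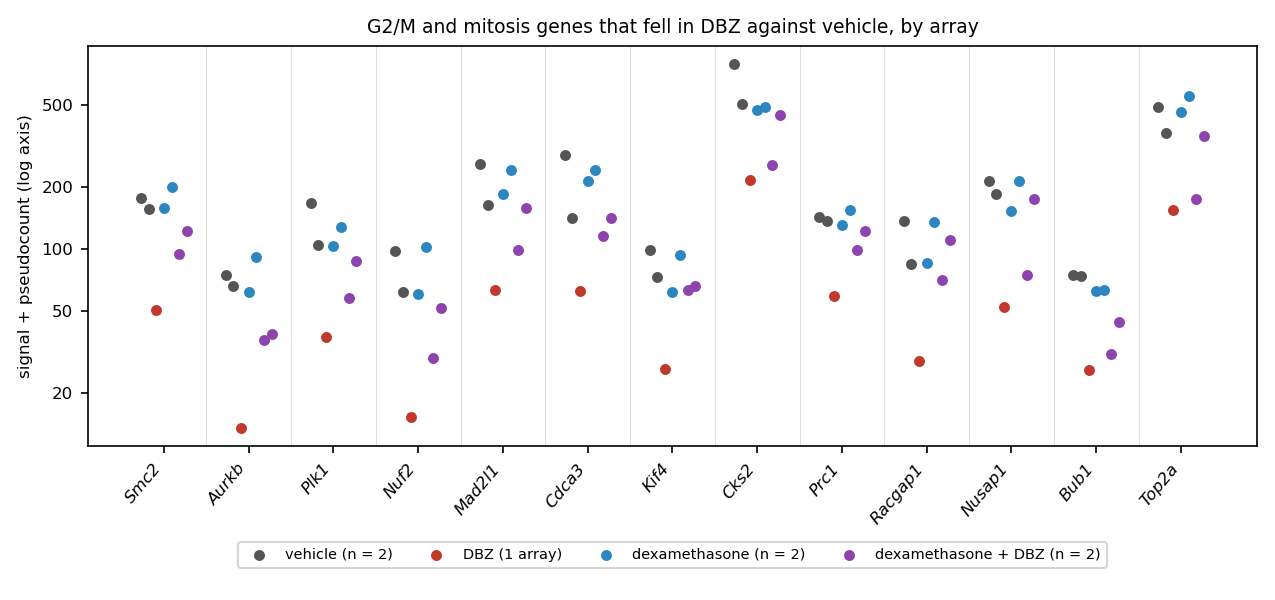
The 13 G2/M and mitosis genes that fell in DBZ against vehicle are plotted by array, with signal plus pseudocount on a log axis and 1 point per array (vehicle grey, DBZ red, dexamethasone blue, combination purple). For Aurkb and Smc2 the DBZ point lies below all 6 others and the combination points lie below the dexamethasone points.

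Promoters of mitotic genes are known for a pair of short elements, the CCAAT box and the cell cycle genes homology region (CHR), through which these genes are switched off in cells that leave the cell cycle. The windows from 250 bases before to 50 bases after the start site are shown for the called G2/M genes of smallest p that have an entry in the RefSeq table of build GRCm38.p6 as examples of a list whose fall was not limited to them. Capitals mark TTTGAA (CHR) and CCAAT on either strand.
Smc2 (chr4:52438971-52439270, plus strand): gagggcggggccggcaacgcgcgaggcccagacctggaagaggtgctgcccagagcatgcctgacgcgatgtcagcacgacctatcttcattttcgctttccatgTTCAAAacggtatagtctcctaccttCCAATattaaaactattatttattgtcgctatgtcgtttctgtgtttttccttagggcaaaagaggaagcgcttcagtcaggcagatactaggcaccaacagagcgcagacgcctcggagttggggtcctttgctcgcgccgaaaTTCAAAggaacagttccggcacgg
Plk1 (chr7:122159185-122159484, plus strand): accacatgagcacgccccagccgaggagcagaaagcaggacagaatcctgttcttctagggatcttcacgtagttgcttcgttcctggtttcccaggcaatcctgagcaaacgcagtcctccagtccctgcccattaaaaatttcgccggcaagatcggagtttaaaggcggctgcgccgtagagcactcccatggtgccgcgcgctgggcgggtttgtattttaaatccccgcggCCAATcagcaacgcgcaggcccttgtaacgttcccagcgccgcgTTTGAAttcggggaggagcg
Nuf2 (chr1:169531415-169531714, minus strand): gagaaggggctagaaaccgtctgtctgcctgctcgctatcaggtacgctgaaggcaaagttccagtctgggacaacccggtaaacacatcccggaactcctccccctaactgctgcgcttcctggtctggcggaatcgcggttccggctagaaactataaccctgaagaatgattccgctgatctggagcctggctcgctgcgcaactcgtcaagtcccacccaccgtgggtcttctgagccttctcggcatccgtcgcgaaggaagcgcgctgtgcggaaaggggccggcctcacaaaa
Mad2l1 (chr6:66534971-66535270, plus strand): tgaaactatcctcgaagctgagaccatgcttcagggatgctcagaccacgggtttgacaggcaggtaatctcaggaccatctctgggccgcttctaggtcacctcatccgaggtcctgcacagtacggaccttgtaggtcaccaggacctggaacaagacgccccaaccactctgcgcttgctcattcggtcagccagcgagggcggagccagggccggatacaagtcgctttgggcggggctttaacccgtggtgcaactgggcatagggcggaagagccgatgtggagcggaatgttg
The Smc2 window holds 2 CHR letters and 1 CCAAT, the Plk1 window 1 of each, and the Nuf2 and Mad2l1 windows 0 of either.

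Over the whole list, 46 of the 52 tested G2/M genes had an entry, and 32 of them (69.6%) held TTTGAA on either strand, against 20.2% of the 27025 genes in the table. CCAAT was held by 33 (71.7%) against 41.1% of all. Of the 12 called G2/M genes with an entry, 7 held TTTGAA, 9 held CCAAT and 7 held both. In all, 6 motifs were searched in 4 lists. The others were TTCGAA (6 of 46 G2/M genes, 1.8% of all), the E2F letters TTTGGCGC (1 of 46, and 7 of 45 G1/S genes, 0.585% of all), the Rbpj letters TGGGAA (8 of 46 G2/M genes, 28.3% of all) and a form of the sterol regulatory element with 10 letters (0 of 46, 0.0999% of all). Among the 45 G1/S genes with an entry TTTGAA was held by 8, CCAAT by 30, TGGGAA by 18, TTCGAA by 2 and the sterol letters by 0. Of 18 cholesterol synthesis genes 18 held CCAAT, 7 TGGGAA, 1 TTTGAA, 1 TTCGAA and 0 the E2F or sterol letters. Of 5 Notch targets with an entry 3 held CCAAT, 1 TTTGAA and 0 any of the other 4 motifs. A match is a description of these letters only.

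Genes of the G1/S transition and DNA replication were lower as well. Against vehicle 4168 of all 8094 genes lay below 0 and 3.88% fell. Of 53 tested 48 lay below 0, the median was -0.71 and 8 fell, or 1 without vehicle replicate 1 and 4 without vehicle replicate 2. E2f8, a repressor active in dividing cells, fell from 143 and 206 to 36 (-1.93 ± 0.39), with 94.8 and 149.6 in the dexamethasone and 34.2 and 59.6 in the combination arrays. Uhrf1, which maintains DNA methylation, fell from 196 and 146 to 58.1 (-1.37 ± 0.28). For both genes the DBZ and combination arrays were all below the vehicle and dexamethasone arrays. Rrm1, a subunit of the enzyme that makes deoxynucleotides, fell (-1.49 ± 0.32), the clamp loader Rfc4 (-1.48 ± 0.33), the single-strand binding subunit Rpa3 (-1.25 ± 0.28) and the helicase subunit Mcm2 (-1.10 ± 0.25). In the combination against dexamethasone the median was -0.49, or -0.20 without combination replicate 1. There 50 of 53 lay below 0, beside 4846 of all 8094 genes. Both combination arrays were below both dexamethasone arrays in 37, against 28.6% of all genes. The calls of Uhrf1 (-1.17) and Rrm1 (-1.23) ended without vehicle replicate 1. The call of E2f8 (-1.68) ended without vehicle replicate 2. The calls of Rfc4 (-1.57 to -1.39) and Rpa3 (-1.25) ended without vehicle replicate 1 or 2. The call of Mcm2 (-1.10 to -0.95) ended without combination replicate 1 or 2 or vehicle replicate 1.

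Genes of cell cycle exit and of growth gave fewer calls. Of 30 CDK inhibitors and exit genes 3 rose and 2 fell. Cdkn1a, the inhibitor p21, had 1595 and 1615 with vehicle and 2880 with DBZ, the highest of the 7 arrays (0.84 ± 0.22). The antiproliferative gene Btg2 rose from 343 and 428 to 871 (1.16 ± 0.23), also the highest array, and Gadd45g rose (1.87 ± 0.34). Max, the partner of Myc, fell from 779 and 1126 to 128 (-2.75 ± 0.41), with 81 and 198 in the dexamethasone and 509 and 447 in the combination arrays. Its difference in the combination against dexamethasone was 1.80 ± 0.34 and did not pass. Rbl2, a pocket protein, fell (-0.86 ± 0.23). Of 34 genes of ribosome biogenesis and nucleotide synthesis 2 fell, Gnl3 (-1.17 ± 0.25) and Nop56 (-1.10 ± 0.29; its other probe set 0.09), with a list median of -0.34, or -0.19 without vehicle replicate 1. Among 25 crypt stem cell and Wnt genes Hopx fell from 1930 and 1848 to 602 (-1.63 ± 0.27) and the Wnt target Sp5 from 256 and 364 to 114 (-1.33 ± 0.31), with low dexamethasone values for both (784 and 909.5, and 60.4 and 77.6). The call of Gnl3 (-1.05) ended without vehicle replicate 1. The call of Sp5 (-1.33 to -1.08) ended without combination replicate 1 or 2 or vehicle replicate 2. The call of Cdkn1a (0.83 to 0.85) ended without combination replicate 1 or 2 or vehicle replicate 1 or 2. The call of Nop56 (-1.10 to -0.88) ended without combination replicate 1 or 2, dexamethasone replicate 1 or 2 or vehicle replicate 1. The call of Rbl2 (-0.94 to -0.79) ended without combination replicate 1 or 2, dexamethasone replicate 1 or 2 or vehicle replicate 1 or 2.

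Genes that mark position along the small intestine held many of the largest differences, and their summed signals set the vehicle arrays apart from every treated array. The summed signal of 24 ileal genes was 42290 and 39840 with vehicle, 92930 with DBZ, 62020 and 72960 with dexamethasone, and 53950 and 67030 with the combination. Of the 24, 15 rose and 2 fell against vehicle, beside 3.93% and 3.88% of all genes, with a median of 1.79. The DBZ array was the highest of the 7 in 14, against 16.3% of all genes. Against dexamethasone the median was 0.45, and in the combination against dexamethasone it was -0.10. The interaction called 14 of the 24 lower and 1 higher. The proximal list was highest with vehicle, with summed signals of 87820 and 96230 in the vehicle arrays, 59910 in the DBZ array, 39140 and 39530 with dexamethasone, and 63350 and 62790 with the combination. Of 32 proximal genes 14 fell and 1 rose against vehicle, beside 3.88% and 3.93% of all genes, with a median of -0.65. Against dexamethasone the proximal median was 0.31, with 25 above 0. In the combination against dexamethasone it was 0.61, with 28 above 0. The interaction called 16 of the 32 higher and 0 lower, beside 1.75% and 2.09% of all genes.

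Fabp6, the bile acid carrier of ileal enterocytes, had 0.64 and 1.22 in the vehicle arrays, 11870 in the DBZ array, 3324 and 10010 with dexamethasone and 1190 and 1116 with the combination (9.81 ± 0.48). Its vehicle signals lie below the pseudocount, so the size of this rise depends on it. Tmigd1, an adhesion protein, rose from 187 and 134 to 6089 (5.16 ± 0.31), Fam151a from 53.7 and 22.8 to 1509 (4.98 ± 0.48) and the phosphate transporter Slc34a2 from 289 and 45.2 to 3694 (4.82 ± 0.72). In each of these the 4 dexamethasone and combination arrays were also above both vehicle arrays. The monocarboxylate transporter Slc5a8 rose (4.53 ± 0.27), as did the glycosyltransferase Mgat4c (3.40 ± 0.45), the antimicrobial lectin Reg3g (3.26 ± 0.76) and sulfite oxidase, Suox (3.19 ± 0.44). Reg1, a secreted protein of the proximal gut, fell from 7193 and 8090 to 95.5, with 100.5 and 54.7 in the dexamethasone and 96.1 and 72.5 in the combination arrays (-6.15 ± 0.31). The carnitine synthesis enzyme Bbox1 (-2.83 ± 0.42), the alcohol dehydrogenase Adh4 (-2.76 ± 0.34), the glucuronosyltransferase Ugt2b5 (-2.50 ± 0.28) and the deacetylase Aadac (-1.95 ± 0.19) fell as well. The call of Reg3g (2.45 to 3.26) ended without combination replicate 1 or 2 or vehicle replicate 2.

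Of 32 intestinal transcription factors tested 2 rose and 5 fell, with 17 above 0, 15 below and a median of 0.00. Without either combination array 3 fell. Gata6 and Gata4, which maintain proximal identity, had 1661 and 1859 and 660.2 and 469 in the vehicle arrays and 435 and 191 in the DBZ array (-1.98 ± 0.20 and -1.49 ± 0.25). Gata6 was lowest in the DBZ array, below 746 and 853 with dexamethasone and 1061 and 1071 with the combination. Hnf4g, a factor of enterocyte genes, fell from 1326 and 978 to 276 (-2.0 ± 0.31), and Cdx2, a factor of intestinal identity, from 1304 and 1352 to 648 (-1.02 ± 0.24). Nr1h4, the bile acid receptor of the ileum, rose from 192 and 167 to 534 (1.51 ± 0.25), the highest of the 7 arrays, and Klf3 rose (0.98 ± 0.20). The interaction passed for Gata4, Gata6, Hnf4g and Nr1h4, but it contains the same DBZ minus vehicle difference and is no separate evidence. The labels do not say from which part of the small intestine each sample came, so sampling position and treatment cannot be told apart. The call of Klf3 (0.94) ended without vehicle replicate 1. The call of Cdx2 (-1.05 to -1.0) ended without combination replicate 1 or 2 or vehicle replicate 1 or 2.

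Mep1a, a brush border metalloprotease on the ileal list, had 699 and 608 with vehicle and 4812 with DBZ, with 3441 and 4515 and 2579 and 2874 in the other treated groups (2.86 ± 0.23). Some of the largest changes outside the position lists were in genes of scattered functions. Bmp2, a ligand that restrains crypt growth, rose from 108 and 126 to 694 (2.45 ± 0.24), and the sialic acid lyase Npl rose (2.49 ± 0.55). The protease inhibitor Slpi had 281 and 134 and 1164 (2.51 ± 0.34), and Serpina1b rose (2.91 ± 0.56). Among falls, Rab5c, an endosomal GTPase, had 1413 and 1270 and 186 (-2.77 ± 0.20), Pigt, which attaches lipid anchors, fell (-2.69 ± 0.41), Clec2d (-2.60 ± 0.48) and butyrylcholinesterase (Bche) (-2.43 ± 0.29). Bco1, which cleaves beta-carotene, rose although it stands on the proximal list, from 39.6 and 37.6 to 323 (2.72 ± 0.35), with 103 and 122 and 572 and 298 in the dexamethasone and combination arrays. The call of Clec2d (-2.16) ended without vehicle replicate 2. The call of Serpina1b (2.84 to 2.98) ended without vehicle replicate 1 or 2. The call of Npl (1.75 to 2.49) ended without combination replicate 1 or 2 or vehicle replicate 2.

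Among enzymes that conjugate drugs and other foreign compounds, with the carboxylesterases, 12 of 38 tested fell and 0 rose. The median was -0.74, 7 lay above 0, and 6 fell without vehicle replicate 2 or without either combination array. Ces2g fell from 942 and 906 to 146 (-2.57 ± 0.23), the epoxide hydrolase Ephx1 from 729 and 755 to 191 (-1.89 ± 0.23) and the glutathione transferase Gstm4 from 259.9 and 192 to 31.5 (-2.43 ± 0.32). In each of these the dexamethasone and combination arrays were also far below vehicle, with 226 and 203 and 237 and 188 for Ephx1. Of 31 fat absorption and chylomicron genes 17 lay above 0 and 14 below, with a median of 0.02 (-0.09 without vehicle replicate 1), and 3 fell, colipase among them. Apob and Apoc2, apolipoproteins of fat export, fell from 8395 and 10660 to 2896 (-1.70 ± 0.35) and from 8367 and 8881 to 3617 (-1.25 ± 0.22). Apob had 1323 and 2640 with dexamethasone and 6112 and 5773 with the combination. In the combination against dexamethasone 29 of the 31 fat genes lay above 0, with a median of 0.42. Of 19 genes of vitamin A, carotenoid and folate handling 3 fell and 1 rose, with a median of -0.41. The falls included the folate transporter Slc46a1 (-2.30 ± 0.37) and the retinol carrier Rbp2 (-1.12 ± 0.22). Rbp2 had 4228 with DBZ, 2393 and 2902 with dexamethasone and 4805 and 4607 with the combination. In the combination against dexamethasone 14 of these 19 genes lay above 0 and 5 below, with a median of 0.37. Of 19 genes of the urea cycle, arginine and proline metabolism 3 fell and 0 rose, with a median of -0.03 (0.01 without vehicle replicate 2). Arg2, an arginase, fell from 6017 and 5824 to 2300 (-1.36 ± 0.20), Aldh18a1, which starts proline synthesis, (-1.59 ± 0.30), and Cps1, the first enzyme of the urea cycle, (-1.57 ± 0.35). Of 31 fatty acid oxidation and ketogenesis genes 2 fell, the ketone body enzyme Bdh1 (-1.32 ± 0.20) among them, and 1 rose, with a median of -0.12. The call of Rbp2 (-1.0) ended without vehicle replicate 1. The call of Apob (-1.53) ended without vehicle replicate 2. The call of Cps1 (-1.71 to -1.43) ended without vehicle replicate 1 or 2.

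Cholesterol synthesis went the other way, and 5 of its genes rose. Of 22 tested 17 lay above 0, with a median of 0.39, 5 rose and 0 fell. Squalene epoxidase (Sqle) had 159 and 144 with vehicle and 599 with DBZ (1.90 ± 0.25), squalene synthase (Fdft1) 204 and 262 and 894 (1.89 ± 0.23) and the demethylase Cyp51 152 and 213 and 603 (1.68 ± 0.28). Hmgcs1, which makes HMG-CoA, rose from 1992 and 1892 to 4075 (1.06 ± 0.21), and Fdps rose (1.33 ± 0.31). The dexamethasone arrays were also above vehicle, with 652 and 719.8 for Sqle, and in the combination against dexamethasone the list median was -0.20. Of 18 brush border enzymes 10 lay above 0 and 8 below, with a median of 0.03. The peptidases Xpnpep2 (2.24 ± 0.35), Dpep1 (1.01 ± 0.20) and Mep1a rose and the phosphatase Akp3 fell (-3.40 ± 0.70). Of 21 microvillus structure genes 4 rose, the scaffold proteins Ush1c (0.94 ± 0.19), Espn (1.33 ± 0.29) and Pdzk1 (0.98 ± 0.26) with Tmigd1, and the median was 0.34. The calls of Hmgcs1 (1.03) and Akp3 (-2.51) ended without vehicle replicate 2. The call of Dpep1 (1.0 to 1.02) ended without vehicle replicate 1 or 2. The calls of Fdps (0.98 to 1.33) and Espn (0.97 to 1.33) ended without combination replicate 1 or 2 or vehicle replicate 2. The call of Pdzk1 (0.89 to 1.07) ended without combination replicate 1 or 2 or vehicle replicate 1 or 2.

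**Figure D4:**
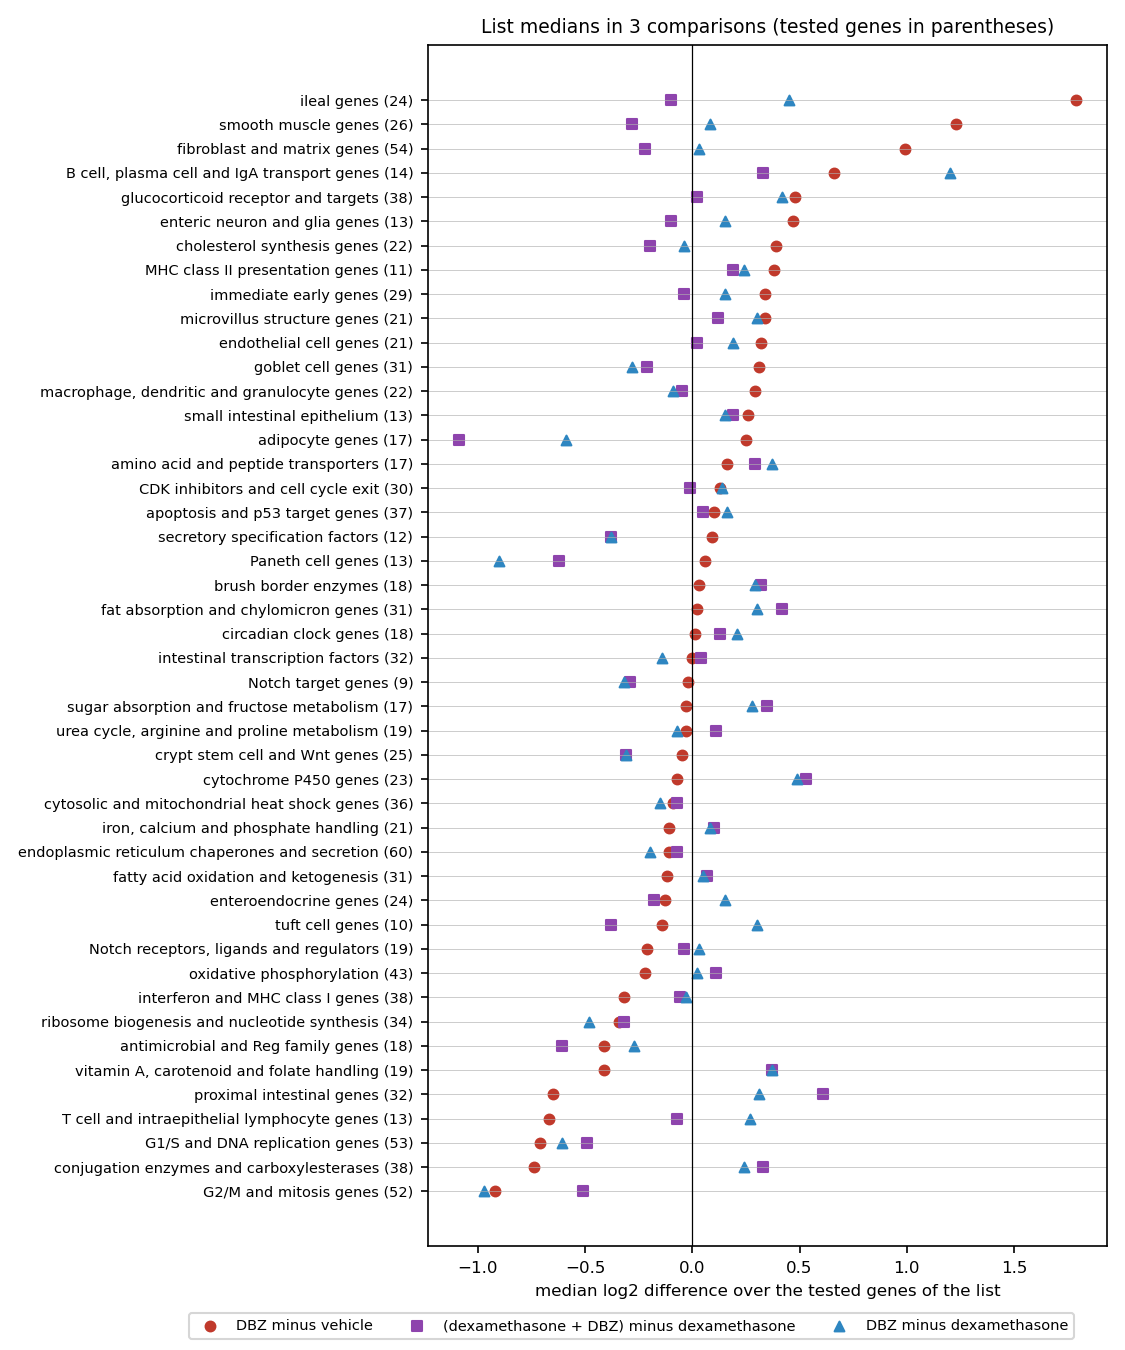
Median log2 differences of the gene lists with at least 9 tested genes are plotted for DBZ minus vehicle (red circles), the combination minus dexamethasone (purple squares) and DBZ minus dexamethasone (blue triangles). The G2/M and G1/S lists lie below 0 in all 3 comparisons (-0.92, -0.51 and -0.97 for G2/M), whereas the ileal list stands at 1.79, -0.10 and 0.45.

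Genes of the muscle layer and connective tissue were higher in the DBZ array than with vehicle. Of 33 smooth muscle genes 26 were tested and 26 of them lay above 0, with a median of 1.23, and 12 rose. The count that rose was 5 without vehicle replicate 2 and 9 without either combination array. Transgelin (Tagln), an actin-binding protein, rose from 1633 and 1199 to 4022 (1.51 ± 0.26), with 4525 and 3454 and 2911 and 3336 in the other treated groups. The inhibitor of myosin phosphatase Ppp1r14a rose (2.09 ± 0.33), as did the tropomyosin Tpm2 (1.37 ± 0.22) and Mustn1 (1.87 ± 0.23). Of 54 fibroblast and matrix genes 19 rose and 1 fell, with a median of 0.99. Grem1, a BMP antagonist made under the crypts, rose from 83.6 and 82.8 to 374 (2.02 ± 0.27). Gelsolin, Gsn (1.81 ± 0.22), the growth factor binding protein Igfbp4 (1.51 ± 0.20) and the matrix proteins Postn (1.57 ± 0.26) and Lum (1.35 ± 0.22) rose as well. Against dexamethasone the medians were 0.08 for smooth muscle and 0.03 for fibroblast genes. Without dexamethasone replicate 1 they were 0.32 and 0.24, and without dexamethasone replicate 2 their sign turned, to -0.13 and -0.21. The summed smooth muscle signal was 29700 and 23830 with vehicle, 51860 with DBZ and 40820 to 56100 in the other arrays, and the part of this shift in the lower crypt signals was not tested. No gene of the endothelial (21 tested), neuronal and glial (13) or adipocyte (17) lists was called. Leaving out 1 array gave at most 1 call in the endothelial list (without vehicle replicate 1), 1 in the neuronal list (without either dexamethasone array) and 2 in the adipocyte list (without vehicle replicate 1).

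Immune genes gave calls in both directions, and in the T cell list 4 fell and 0 rose. Granzyme B (Gzmb), a killing protease of intraepithelial lymphocytes, fell from 242 and 274 to 37.7 (-2.43 ± 0.28), the lowest of the 7 arrays, and granzyme A (Gzma) from 921 and 1162 to 285 (-1.82 ± 0.22). The chemokine Ccl5 and the T cell receptor segment Trgv4 fell (-1.32 ± 0.31 and -1.19 ± 0.31), which makes 4 of 13 T cell genes, beside 3.88% of all genes. In each of these 4 the dexamethasone and combination arrays were also below both vehicle arrays, with 336 and 374 and 302 and 309 for Gzma. The median of the T cell list was -0.67 against vehicle, where 10 of the 13 lay below 0. It was 0.27 in DBZ against dexamethasone and -0.07 in the combination against dexamethasone. Cd74, the invariant chain of MHC class II, rose, with 898 and 607 with vehicle, 1744 with DBZ and 515 and 659.9 with dexamethasone (1.23 ± 0.32). The protease Lgmn rose too (1.46 ± 0.23), which makes 2 of 11 MHC class II genes, beside 3.93% of all genes. Pigr, which carries IgA across the epithelium, fell from 8879 and 9307 to 3820 (-1.25 ± 0.22), and Sdc1, syndecan 1 of plasma cells and epithelium, rose from 351 and 339 to 714 (1.02 ± 0.22). Of the 14 tested genes in the B cell, plasma cell and IgA list 12 lay above 0, and the DBZ array was the highest of the 7 in 7, against 16.3% of all genes, with Igha at 6259 and 3486 with vehicle, 7696 with DBZ and 2560 and 3199 with dexamethasone (0.72 ± 0.32, not called). The immunoproteasome subunit Psmb8 (-1.21 ± 0.22) and the deubiquitinating enzyme Usp18 (-1.47 ± 0.38) fell, 2 of 38 interferon and MHC class I genes, near the 3.88% of all genes. Of 18 antimicrobial and Reg family genes 2 rose, Reg3g and Slpi, and 3 fell, Reg1 with the lectins Reg4 and Reg3a (-2.11 ± 0.41 and -0.85 ± 0.23). The call of Reg4 (-1.85) ended without vehicle replicate 1. The call of Sdc1 (1.0) ended without vehicle replicate 2. The call of Ccl5 (-1.34 to -1.31) ended without vehicle replicate 1 or 2. The call of Cd74 (0.95 to 1.23) ended without combination replicate 1 or 2 or vehicle replicate 2. The call of Usp18 (-1.49 to -1.45) ended without combination replicate 1 or 2 or vehicle replicate 1 or 2. The call of Reg3a (-0.85 to -0.65) ended without combination replicate 1 or 2, dexamethasone replicate 1 or 2 or vehicle replicate 1. The call of Trgv4 (-1.21 to -1.17) ended without combination replicate 1 or 2, dexamethasone replicate 1 or 2 or vehicle replicate 1 or 2.

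Among 36 heat shock genes 3 rose and 3 fell. The cytosolic Hspa1b, Hspb1 and Hspa2 rose (1.71 ± 0.33, 1.84 ± 0.36 and 1.34 ± 0.27), and the mitochondrial chaperones Hspd1, Hspe1 and Hspa9 fell (-1.14 ± 0.27, -1.20 ± 0.30 and -0.95 ± 0.23). Hspa2 had 97.8 and 97.5 with vehicle, 266 with DBZ, 112 and 136 with dexamethasone and 118 and 146 with the combination, with the DBZ array highest. Hspd1 had 1996 and 2036 with vehicle, 905 with DBZ, 1691 and 1857 with dexamethasone and 1353 and 2184 with the combination, with the DBZ array lowest. Of 60 genes of endoplasmic reticulum chaperones and secretion 3 fell, beside 3.88% of all genes, and 0 rose, with a median of -0.11. These were Pdia3, Kdelr1 and Sec24d (-1.15 ± 0.24, -1.10 ± 0.25 and -0.98 ± 0.24). Of 37 apoptosis and p53 target genes 4 rose, Cdkn1a among them, and 2 fell. The pro-apoptotic Bcl2l11 rose from 226 and 250 to 1278 (2.37 ± 0.24), but its other probe sets gave 0.44, -0.67 and -0.11. The survival factor Mcl1 rose (0.96 ± 0.20, with 0.95, 0.04, 0.06, 1.01 and 1.06 from its other probe sets) and the initiator caspase Casp8 (0.82 ± 0.21), while Casp6 and Casp1 fell (-2.27 ± 0.33 and -1.07 ± 0.26). Of 38 genes of the glucocorticoid receptor and its targets 10 rose and 1 fell in mice that received no glucocorticoid (5 rose without vehicle replicate 1), among them Klf9 (1.72 ± 0.30), Map3k6 (2.23 ± 0.27), Txnip (1.59 ± 0.21) and Rgs2 (1.30 ± 0.24). Of all genes 3.93% rose and 3.88% fell. The summed signal of the 38 glucocorticoid genes was 36740 and 46630 with vehicle, 61080 with DBZ and 39350 and 41290 with dexamethasone. With the combination it was 50340 and 55450. The dexamethasone sums thus lay between those of the vehicle arrays. The metallothioneins Mt1 and Mt2 rose (1.08 ± 0.27 and 1.56 ± 0.29). The calls of Hspa1b (1.62), Hspa9 (-0.84), Pdia3 (-0.99), Mcl1 (0.95) and Mt2 (1.30) ended without vehicle replicate 1. The call of Hspb1 (1.56) ended without vehicle replicate 2. The calls of Hspd1 (-1.16 to -1.13), Hspe1 (-1.22 to -1.18) and Kdelr1 (-1.10) ended without vehicle replicate 1 or 2. The call of Casp1 (-1.07 to -0.94) ended without combination replicate 1 or 2 or vehicle replicate 1. The call of Sec24d (-0.98 to -0.82) ended without combination replicate 1 or 2 or vehicle replicate 2. The call of Mt1 (0.87 to 1.29) ended without dexamethasone replicate 1 or 2 or vehicle replicate 1 or 2. The call of Casp8 (0.64 to 0.82) ended without combination replicate 1 or 2, dexamethasone replicate 1 or 2 or vehicle replicate 2.

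Set against dexamethasone alone, the DBZ array was lower in 9 genes and higher in 6. Lower were the mitotic genes Aurkb and Smc2 and the Paneth protease Mmp7 given above, with Cdca7l, Ctse, Hmgn1, Snrpd3, Srsf2 and Zdhhc2. Srsf2, a splicing factor, had 918 and 1062 with vehicle, 326 with DBZ, 1232 and 1259 with dexamethasone and 719.5 and 841 with the combination (-1.89 ± 0.21 against dexamethasone, adjusted p = 0.0268). Its other probe sets gave -0.89, 0.15 and -0.44 against vehicle. Cdca7l, a Myc-responsive gene, had 71.2 and 68.6, 13, 110.3 and 91.5 and 53.8 and 50.1 in the same order (-2.16 ± 0.32), and the palmitoyltransferase Zdhhc2 76.3 and 113, 12.3, 104 and 89.3 and 43 and 51.8 (-2.14 ± 0.35). In these 3 genes the DBZ array was lowest and both combination arrays lay between it and all other arrays. Hmgn1 (-3.10 ± 0.23) and Snrpd3 (-1.90 ± 0.25) were low in the DBZ array through 1 probe set, the others giving -0.04 and 0.19 and -0.03 against vehicle, and Ctse stood at -1.63 ± 0.26 with -0.48 from its other probe set against vehicle. Genes of this comparison and of the combination against dexamethasone outside the lists were chosen after their values were seen.

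The 6 genes higher than with dexamethasone lay within the vehicle range or between vehicle and dexamethasone. Cyp3a11, a steroid and drug oxidase, had 7848 and 9113 with vehicle, 8175 with DBZ and 2294 and 3169 with dexamethasone (-0.05 ± 0.25 against vehicle, 1.60 ± 0.25 against dexamethasone, adjusted p = 0.0456). Cyp2b10, another drug oxidase, had 4270 and 4431, 4276 and 1173 and 1344, and 3287 and 2963 with the combination. It was also 1 of the 3 genes called in the combination against dexamethasone (1.31 ± 0.17, adjusted p = 0.0499), the others being the histone gene H2bc22 (2.38 ± 0.28) and the pentraxin Mptx1 (-2.42 ± 0.30). Pdk4, the kinase that limits pyruvate oxidation, had 921 and 1555, 1248 and 224 and 236 (2.38 ± 0.30). Cyp3a25 (1.67 ± 0.27), Cyp2c29 (3.39 ± 0.57) and Afp complete the group. With 1 array left out the number of genes called in DBZ against dexamethasone ranged from 1 (without dexamethasone replicate 1 or either combination array) to 55 (without dexamethasone replicate 2). For the combination against dexamethasone it ranged from 0 (without either combination array) to 75 (without dexamethasone replicate 2).

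**Figure D5:**
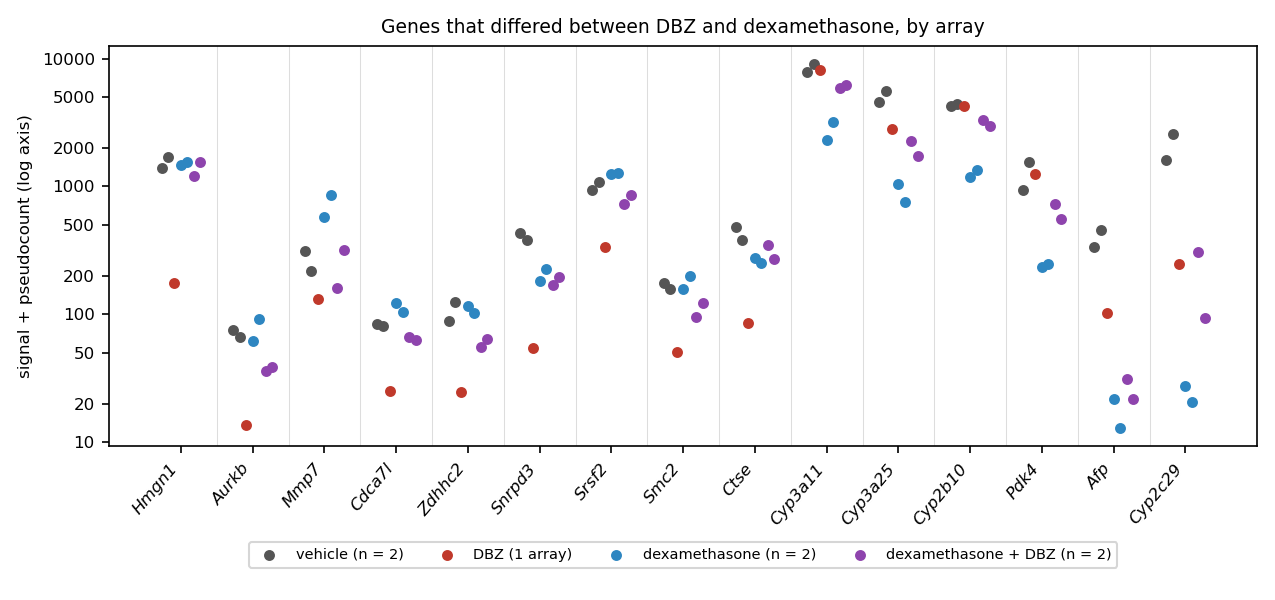
The 15 genes called in DBZ against dexamethasone are plotted by array, ordered from the lowest to the highest difference, with signal plus pseudocount on a log axis and 1 point per array. In the 9 genes on the left the DBZ point (red) lies below both dexamethasone points (blue), and in the 6 on the right above them.

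Of the 318 genes that rose, 118 lay above 0 in the combination against dexamethasone, with a median of -0.1, and of the 314 that fell 155 lay below 0, with a median of 0.01, beside -0.07 for all genes. With the alternatives, the count of genes called in DBZ against vehicle ranged from 314 without a filter on dim probe sets to 826 with only the groups compared. Dropping vehicle replicate 1 gave 413, of which 276 rose and 137 fell, and dropping the combination replicates gave 405 (replicate 1) and 402 (replicate 2). An exact permutation test of 1 array against 2 cannot give a p below 1/3.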

How the data were processed

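The deposited values are MAS5 intensity values per Affymetrix probe set, per the submitters' processing notes. Which version of MAS5 was run is not stated there. Each of 8 columns holds 1 sample of 4 groups with 22690 probe sets. Every column was scaled to a trimmed mean of 250 (2% left out at each end), the DBZ columns were averaged, and log2(signal + 12.32) was taken, 12.32 being the pooled 20th percentile. Small signals have their differences understated by this pseudocount. The 64 control probe sets and those with a mean signal under 38.82 (the 40th percentile) were left out, which kept 13638. Array signals carry no read depth, so the number of arrays limits the precision.

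Group means were fitted with limma 3.58.1 in R 4.3.3 (empirical Bayes with an intensity trend, 3 residual and 6.83 prior degrees of freedom, Benjamini-Hochberg adjustment over all probe sets), and the script was tested on simulated data. A gene is represented by its tested probe set of highest mean signal. Probe sets were named from the platform annotation: 20393 had 1 symbol, 691 several and 1606 none, and those with several or none name no gene.

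Named were the 15 largest called rises and falls with a higher-group mean of at least 200, up to 6 members of each described list by smallest p, all tested members of the gamma-secretase, Notch and secretory factor lists, and up to 5 interaction genes. The comparison, its lists and its tests were chosen with earlier results of these data known. The alternatives were quantile or median scaling, other pseudocounts and filters, other variance models, fewer groups, fewer probe sets, a replicate block, each DBZ column alone and each array left out.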

Additional observations from a re-analysis of the deposited data

Results flagged for a closer look

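The interaction is the DBZ difference on the dexamethasone background minus that against vehicle. It passed for 82 of the 189 genes named here (limma, Benjamini-Hochberg over all probe sets), 43 above 0 and 39 below 0. Over all genes it passed for 3.84%. Most of the named genes were chosen by their DBZ minus vehicle difference, which the interaction contains with the opposite sign. Their count is therefore no independent result. Both backgrounds differ in their controls, and the vehicle arrays stand apart from every treated array.

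The log2 interaction values above 0, from the largest in size, were Reg1 6.29, Cyp2c29 5.86, Max 4.56, Akp3 4.18, Bbox1 3.64, Casp6 3.42, Slc46a1 3.42, Apob 3.37, Adh4 3.37, Ces2g 3.29, H2bc22 3.28 and Clec2d 3.26. They were followed by Aadac 3.16, Hnf4g 3.09, Rab5c 3.07, Bche 3.07, Hmgn1 2.98, Pigt 2.97, Snrpd3 2.75, Afp 2.57, Ctse 2.55, Gstm4 2.51, Cck 2.50 and Gata6 2.40. Further values were Gzmb 2.37, Gata4 2.10, Arg2 2.08, Ddc 2.08, Cyp3a25 2.00, Rbp2 1.95, Apoc2 1.90, Ephx1 1.87, Ugt2b5 1.86, Trgv4 1.84, Sp5 1.79 and Aldh18a1 1.71. After these stood Reg3a 1.68, Gzma 1.61, Sec24d 1.47, Kdelr1 1.41, Pdia3 1.40, Cyp2b10 1.33 and Bdh1 1.20.

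The log2 interaction values below 0, from the largest in size, were Fabp6 -12.12, Reg3g -5.97, Tmigd1 -5.50, Fam151a -5.21, Mgat4c -5.04, Slc5a8 -4.73, Suox -4.14, Pyy -4.01, Slc34a2 -3.89, Mep1a -3.39, Serpina1b -3.29 and Ppp1r14a -2.78. Further values were Slpi -2.62, Fdft1 -2.60, Bmp2 -2.53, Mptx1 -2.51, Bcl2l11 -2.40, Hspb1 -2.36, Grem1 -2.35, Gadd45g -2.34, Guca2a -2.34, Sqle -2.34, Mustn1 -2.19 and Nr1h4 -2.15. After these stood Map3k6 -2.11, Xpnpep2 -2.09, Gsn -1.97, Cyp51 -1.96, Postn -1.95, Klf9 -1.90, Tagln -1.86, Igfbp4 -1.82, Rgs2 -1.65, Txnip -1.62, Sdc1 -1.59 and Tpm2 -1.54. The list went on with Hmgcs1 -1.37, Lgmn -1.37 and Lum -1.36.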

How the results depend on the processing

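In DBZ against vehicle 632 genes were called, and 314 without a filter on dim probe sets and 363 without the intensity trend. Leaving out 1 array gave 402 to 550, and the replicate block gave 549. In the combination set against dexamethasone 3 genes were called, and 11 after scaling to one median, 0 with the pseudocount at the 10th percentile, 0 without a filter on dim probe sets, 0 with the filter at the 60th percentile, 0 without the intensity trend, 6 with a robust variance model, 11 with only the groups compared and 0 without probe sets that may cross-hybridise. Leaving out 1 array gave 0 to 75, and the replicate block gave 0. In the interaction 311 genes were called, and 136 without a filter on dim probe sets and 112 without the intensity trend. Leaving out 1 array gave 57 to 346, and the replicate block gave 288. In DBZ against dexamethasone 15 genes were called, and 4 with quantile normalisation, 4 with the pseudocount at the 40th percentile, 1 without a filter on dim probe sets, 8 with the filter at the 60th percentile, 1 without the intensity trend and 0 with only the groups compared. Leaving out 1 array gave 1 to 55, and the replicate block gave 1. Where a count was 0, limma gave 443 to 1185 genes at unadjusted p under 0.05. Same-numbered arrays had correlations of their deviations from the group means of 0.05, -0.12 and 0.11. With so few arrays per group these values cannot exclude a pairing, and the labels give replicates only a number. The DBZ minus vehicle difference changed sign for Neurog3 (0.01), Nrarp (0.00) and Numbl (0.06) with quantile normalisation, for Cyp2b10 (0.04), Cyp3a11 (0.02) and Nrip1 (0.04) after scaling to one median, for Fbxw7 (-0.02), Hes6 (-0.23), Lyz1 (0.10), Nop56 (0.09), Srsf2 (0.15) and Xbp1 (-0.94) without probe sets that may cross-hybridise. It took both signs over the single arrays left out for Cyp2b10 (-0.05 to 0.00), Cyp3a11 (-0.16 to 0.06), Fbxw7 (-0.21 to 0.36), Hes6 (-0.05 to 0.20), Itch (-0.31 to 0.01), Mptx1 (-0.16 to 0.35), Neurog3 (-0.27 to 0.06), Nrarp (-0.23 to 0.10), Nrip1 (-0.26 to 0.22), Numbl (-0.32 to 0.21), Pdk4 (-0.31 to 0.43), Psenen (-0.06 to 0.12) and Xbp1 (0.00 to 0.18). Of these genes Nop56 and Srsf2 were called as reported. The causes were not tested. The DBZ group is 1 array, and signals near the pseudocount understate differences.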
